A study of Mus musculus with 12 samples.

Results

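The interaction of low-dose penicillin and diet asks whether the difference penicillin makes to hepatic gene expression is the same on a high-fat diet as on chow. It was computed per gene as (penicillin high-fat minus control high-fat) minus (penicillin chow minus control chow), on log2 values, from all 12 of the 12 liver arrays of the study. A positive value means that penicillin mice stood higher against their controls on high-fat diet than on chow, and equally that high-fat feeding moved a gene further upward in penicillin mice than in control mice. The mice were males of the inbred strain C57BL6J, in 4 groups of 3: penicillin high-fat, control high-fat, penicillin chow and control chow. Penicillin was given in the drinking water at 6.7 mg/L and control mice had no antibiotic. All animals began on chow with 13.5% of calories as fat, the high-fat groups moved to a diet with 45% at 17 weeks of age, and every liver was taken at 30 weeks. Each group's 3 samples are labelled as biological replicates. The labels used here name no cage or litter, so the p-values below measure the spread between these samples.

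Dietary fat reaches hepatocytes as fatty acids taken up by membrane receptors such as CD36, and the surplus is stored as triglyceride in lipid droplets, which proteins of the CIDE family enlarge and which the nuclear receptor PPAR gamma promotes. Male and female mouse livers differ in many metabolic enzymes because growth hormone is secreted in pulses in males and more evenly in females, acting through STAT5. Intestinal bacteria supply bile acid derivatives and other metabolites to the liver through the portal vein, and low-dose antibiotics are given to animals to alter those bacteria.

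One array per sample was hybridised, and the deposited log2 values had medians between 5.52 and 5.59 on the 12 arrays. Arrays give no read depth, and their number limits the precision: the median 95% confidence interval of the interaction reached 0.32 log2 units to either side. The hepatocyte gene Alb stood between 14.98 and 15.05 on all arrays. The arrays were quantile-normalised together, which makes their brightest values alike, so this does not compare the samples. Some arrays stood apart. Penicillin chow 1 lay at -30.1 on the second principal component (15.4% of the variance), with the other arrays between -5.32 and 10.6, and its score over 27 acute-phase genes was 1.08 log2 units above their mean. The signal of the 18S control probe sets was 11.81 in penicillin high-fat 2, 11.76 in penicillin chow 2 and 11.77 in penicillin chow 3, against 12.67 or more on the other 9 arrays. Its interaction was 0.55 (two-sided exact permutation p = 0.57 over 400 arrangements within the diets).

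Of 13788 genes tested, 6 passed for the interaction at an adjusted p under 0.05, or 0.0435%. It was positive for 5 of them (0.0363% of genes tested): Hao2, Cidea, Slc22a27, Cd36 and Ifi27l2a. It was negative for Lifr (0.00725% of genes tested were called negative). Penicillin against control on high-fat diet called 47 genes (0.341%), of which 35 rose (0.254%) and 12 fell (0.087%). There 5 of the 6 interaction genes also passed, Cd36 for example at 2.36-fold higher and Lifr at 2.06-fold lower. Ifi27l2a did not pass there, and its penicillin and control groups lay further apart on chow. None of the 6 passed for penicillin on chow. Across all genes, 842 had an unadjusted p under 0.05 for the interaction (6.11%), where a share equal to that threshold would be 689.4 genes. For penicillin on high-fat diet that share was 10.1%, and on chow 7.62%. The 95% interval of the interaction lay wholly within 1 log2 unit of 0 for 13002 genes (94.3%) and within 0.5 units for 8457 (61.3%). For the remaining genes the interval reached beyond these sizes, so the comparison had room to miss such changes there.

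Cd36, which encodes a receptor for the uptake of long-chain fatty acids, stood at 11.38, 11.15 and 11.29 log2 units in penicillin high-fat mice, 10.09, 10.09 and 9.93 in control high-fat mice, 9.21, 9.60 and 9.59 in penicillin chow mice and 9.43, 9.52 and 9.36 in control chow mice. On high-fat diet every penicillin mouse lay above every control, and on chow the groups overlapped. The interaction was 1.21 ± 0.15 (SE; limma adjusted p = 0.0323), a 2.31-fold larger ratio of penicillin to control on high-fat diet than on chow, with a 95% interval of 0.87 to 1.55. Under penicillin Cd36 rose by 1.24 on high-fat diet (adjusted p = 0.000551), and the difference on chow was 0.03 (adjusted p = 0.970). High-fat feeding raised Cd36 by 1.81 in penicillin mice and by 0.60 in control mice (adjusted p = 0.0329). The other probe sets of Cd36 gave interactions of 1.19 and 1.11. Cd36 missed the threshold without penicillin high-fat 1 or 3, control high-fat 1 or 3, penicillin chow 3 or control chow 2, at values of 1.15 to 1.27 and adjusted p up to 0.118.

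Cidea encodes a protein that moves lipid between droplets and enlarges them, and it is scarce in lean mouse liver. Cidea stood at 9.73, 8.14 and 9.79 in penicillin high-fat mice, 5.57, 5.59 and 5.41 in control high-fat mice, 4.42, 5.13 and 5.03 in penicillin chow mice and 4.48, 5.22 and 5.18 in control chow mice. Its high-fat groups were far apart, and its chow groups overlapped with means below 4.999, the floor of the filter on dim genes. The interaction of 3.80 ± 0.53 (adjusted p = 0.0389) therefore reports the rise by 3.70 on high-fat diet, or 13.0-fold, beside a chow difference of -0.10 between values at the floor, which measures no effect of penicillin there. Penicillin high-fat 2, one of the arrays of low 18S signal, was the lowest of its group. With each array left out in turn, Cidea passed in 2 of 12 fits, those without penicillin high-fat 2 or control chow 1. In the other 10 it stood at 3.51 to 3.93, with adjusted p up to 0.124.

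Hao2, a peroxisomal oxidase of hydroxy acids that is higher in female than in male mouse liver, stood at 7.74, 7.85 and 7.58 in penicillin high-fat mice, 5.89, 6.08 and 6.53 in control high-fat mice, 4.64, 4.25 and 4.46 in penicillin chow mice and 4.86, 4.91 and 5.09 in control chow mice. The 4 groups did not overlap with each other, but both chow groups had means below the floor, so the chow difference of -0.50 was not measurable. On high-fat diet Hao2 rose by 1.56 under penicillin (2.94-fold; adjusted p = 0.00141), which is the measured part of its interaction. The fitted interaction was 2.06 ± 0.22 (adjusted p = 0.0114) and includes the chow difference below the floor, so its size is not a measured one. Hao2 missed the threshold without penicillin high-fat 1, penicillin chow 3 or control chow 2, at 2.05 to 2.08 and adjusted p up to 0.0623.

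Slc22a27, a member of the organic anion transporter family, stood at 8.48, 8.09 and 8.16 in penicillin high-fat mice, 6.29, 6.41 and 5.85 in control high-fat mice, 5.02, 5.13 and 4.94 in penicillin chow mice and 4.43, 4.49 and 4.96 in control chow mice. The high-fat groups did not overlap, and the chow groups lay around the floor. The interaction was 1.66 ± 0.24 (adjusted p = 0.0418), with a rise by 2.06 on high-fat diet (4.16-fold) and a difference of 0.40 on chow. The probes of this set may also bind transcripts of near-identical relatives, so the signal cannot be assigned to Slc22a27 alone. Its relative Slc22a29 stood at 1.68 ± 0.35 for the interaction and missed the threshold (adjusted p = 0.195), but passed without control chow 1 at 2.02 (adjusted p = 0.0234). Slc22a27 passed in the fits without control high-fat 2, control chow 1 or control chow 3, and missed in the other 9 at 1.495 to 1.74, with adjusted p up to 0.163.

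Ifi27l2a, an interferon-inducible gene, stood at 8.25, 8.13 and 7.99 in penicillin high-fat mice, 7.84, 7.95 and 7.71 in control high-fat mice, 6.93, 7.02 and 6.94 in penicillin chow mice and 7.53, 7.67 and 7.73 in control chow mice. Penicillin mice lay above controls on high-fat diet and below them on chow, and the groups overlapped on neither diet. The interaction of 0.97 ± 0.13 (adjusted p = 0.0323) joins a difference of 0.29 on high-fat diet with one of -0.68 on chow, and neither passed alone (adjusted p = 0.286 and 0.0583). Read by diet, Ifi27l2a was 1.16 higher on high-fat diet in penicillin mice (adjusted p = 4.9e-05), against a difference of 0.19 in control mice (adjusted p = 0.344). Ifi27l2a passed in the fits without control high-fat 2, control chow 1 or control chow 3, and missed in the other 9 at 0.90 to 1.03, with adjusted p up to 0.118.

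Lifr encodes the receptor for leukaemia inhibitory factor, which signals together with gp130. Lifr stood at 9.64, 9.74 and 9.86 in penicillin high-fat mice, 10.73, 10.69 and 10.97 in control high-fat mice, 11.68, 11.58 and 11.99 in penicillin chow mice and 11.65, 11.46 and 11.60 in control chow mice. The high-fat groups did not overlap with each other or with chow, and the chow groups overlapped. The interaction was -1.22 ± 0.16 (adjusted p = 0.0323), with a 95% interval of -1.58 to -0.86. On high-fat diet Lifr fell by 1.04 under penicillin (adjusted p = 0.00272), and on chow the difference was 0.18. High-fat feeding lowered it by 2.00 in penicillin mice and by 0.78 in control mice (adjusted p = 0.0127). Lifr has further probe sets, at -0.72 and -0.28 for the interaction, with penicillin differences on high-fat diet of -0.55 and -0.67, so the size rests on 1 of 3 probe sets. Lifr passed in the fits without control high-fat 2, penicillin chow 2, control chow 1 or control chow 3, and missed in the other 8 at -1.28 to -1.10, with adjusted p up to 0.118.

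**Figure D1:**
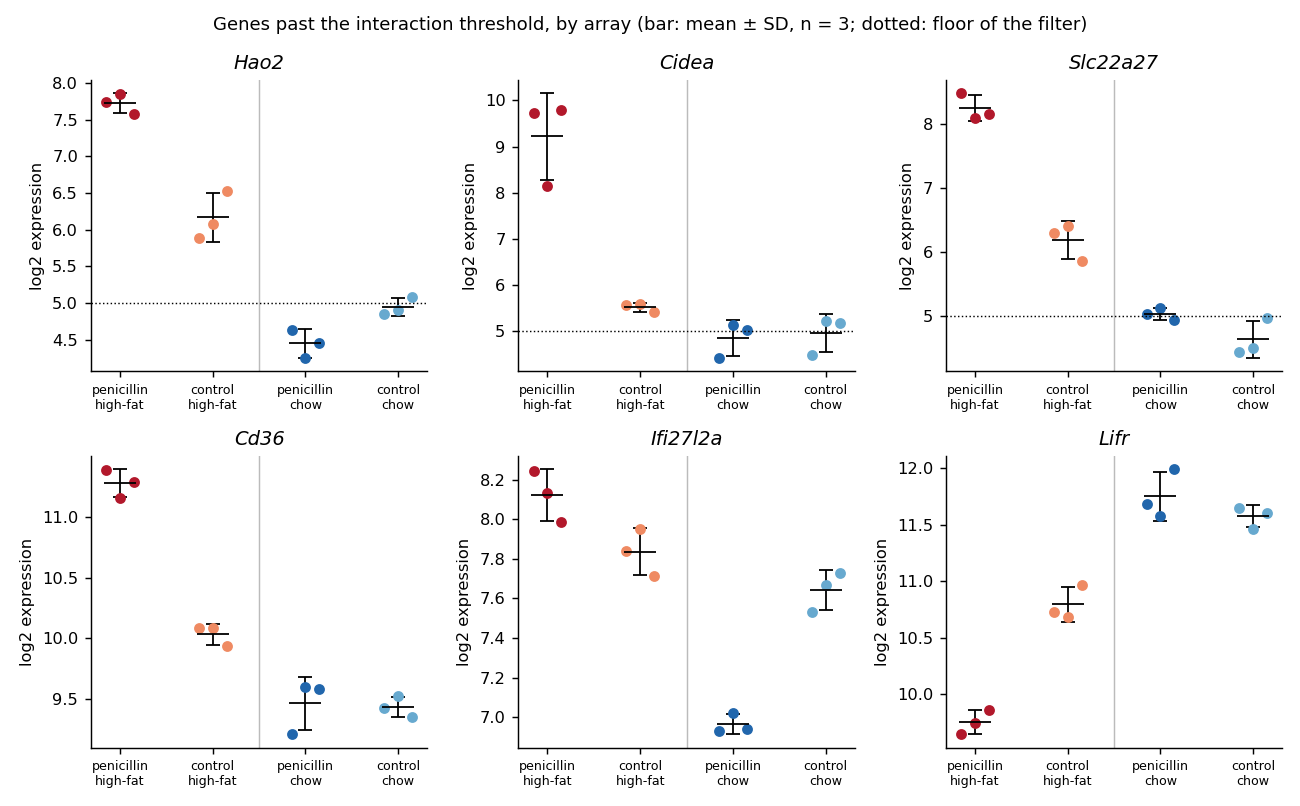
Log2 expression on each of the 12 arrays for the 6 genes past the interaction threshold, with group means and SD bars (n = 3) and, for dim genes, the floor of the filter as a dotted line. The penicillin high-fat group stands apart from its control for all 6 genes, against 17.3% of all genes tested. The choice by interaction favours this. Hao2, Cidea and Slc22a27 reach the floor on chow, and Ifi27l2a has its wider gap between penicillin and control mice on chow.

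The arrays that stood apart bear on these calls. Leaving out the 3 arrays of low 18S signal keeps only penicillin chow 1 in its group, an array that itself stood apart. This holds wherever that fit is used below, so for the interaction only its effect sizes are given. Cd36 was then at 1.52 and Cidea at 4.78 for the interaction. Hao2 was at 1.81, Slc22a27 at 1.74, Ifi27l2a at 0.99 and Lifr at -1.15. Without penicillin chow 1 and penicillin high-fat 1, Cd36 at 1.03 and Hao2 at 2.14 passed, while Cidea at 3.32, Slc22a27 at 1.54, Ifi27l2a at 0.89 and Lifr at -1.20 missed it with adjusted p of 0.115 to 0.142. All 6 kept their sign in both fits.

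The sequences just upstream of the start sites of Hao2, Cd36 and Lifr are shown as examples of called genes whose start regions differ in composition. Each is the 250 bases before the start of transcription, from RefSeq on build GRCm38.p6, read along the gene's strand. A matching entry was found for 23 of the 30 genes of smallest p, 15 in each direction. Hao2 lies at chr3:98893231-98893480 on the minus strand, Cd36 at chr5:17835897-17836146 on the minus strand and the first of the 2 Lifr starts at chr15:7129322-7129571 on the plus strand.
Hao2: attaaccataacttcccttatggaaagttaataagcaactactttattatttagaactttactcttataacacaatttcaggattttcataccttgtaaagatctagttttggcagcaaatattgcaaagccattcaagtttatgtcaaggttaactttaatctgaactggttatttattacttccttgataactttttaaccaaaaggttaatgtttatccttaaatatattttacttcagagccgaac
Cd36: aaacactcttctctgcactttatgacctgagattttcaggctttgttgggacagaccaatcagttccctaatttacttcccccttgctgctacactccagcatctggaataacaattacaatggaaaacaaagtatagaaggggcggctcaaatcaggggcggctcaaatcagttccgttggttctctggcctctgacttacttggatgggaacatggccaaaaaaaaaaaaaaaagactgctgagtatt
Lifr: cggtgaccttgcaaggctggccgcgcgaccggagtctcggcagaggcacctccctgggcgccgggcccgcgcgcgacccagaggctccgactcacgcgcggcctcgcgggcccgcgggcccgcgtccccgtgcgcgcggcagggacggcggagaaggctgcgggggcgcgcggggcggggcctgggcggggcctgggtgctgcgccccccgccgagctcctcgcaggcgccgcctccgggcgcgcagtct
The Hao2 window is 28.4% G and C with 1 CpG, the Cd36 window 43.2% with 3, and the Lifr window 82.4% with 43, where the promoters of all tested genes had a median of 58.8% and 14 CpG. Each was searched on both strands for a direct repeat bound by PPAR receptors (AGGTCA, any base, AGGTCA), the STAT5 motif (TTC, any 3 bases, GAA) and an interferon response motif (GAAA, any 2 bases, GAAA). These occur in 0.0335%, 7.02% and 2.98% of all 32851 promoter windows of this length. None of the 3 windows holds one, which says only that these letters are not in this window.

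Below the threshold, the 10 further positive genes of smallest p had adjusted p of 0.0660 to 0.138 and interactions of 0.64 to 1.52. All 10 had penicillin and control groups that did not overlap on high-fat diet, where 17.3% of all genes tested did so, but the choice by interaction favours this and nothing is read from it. Anxa2, a calcium-dependent phospholipid-binding protein, stood at 10.31, 9.97 and 10.35 in penicillin high-fat mice, 8.76, 8.73 and 8.58 in control high-fat mice, 8.83, 8.15 and 8.06 in penicillin chow mice and 8.27, 8.35 and 8.16 in control chow mice. Anxa2 rose 2.87-fold on high-fat diet (adjusted p = 0.00336), and its chow groups overlapped through penicillin chow 1. Another probe set of Anxa2 gave a difference of 0.79 on high-fat diet and an interaction of 0.65. Its interaction of 1.43 ± 0.25 had an adjusted p of 0.108, and without penicillin chow 1 it was 1.67 with an adjusted p of 0.00646. Gstm3, a glutathione S-transferase, stood at 11.27, 10.98 and 11.63 in penicillin high-fat mice, 10.03, 9.89 and 9.65 in control high-fat mice, 11.45, 11.75 and 11.24 in penicillin chow mice and 11.52, 11.27 and 11.89 in control chow mice. The control high-fat mice were the low group, below every mouse of the other 3 groups. High-fat feeding lowered Gstm3 by 1.71 in control mice (adjusted p = 0.00423), against a difference of -0.18 in penicillin mice (adjusted p = 0.603), and the interaction of 1.52 ± 0.28 missed the threshold (adjusted p = 0.135).

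Genes of matrix and vessels were among these 10. Col3a1, a fibrillar collagen, stood at 9.88, 9.45 and 9.82 in penicillin high-fat mice, 8.91, 8.77 and 8.82 in control high-fat mice, 7.73, 8.24 and 8.48 in penicillin chow mice and 8.72, 8.90 and 8.57 in control chow mice. Penicillin mice lay above controls on high-fat diet and below them on chow without overlap, and the interaction was 1.47 ± 0.25 (adjusted p = 0.108). Without the 3 arrays of low 18S signal the interaction of Col3a1 was 2.02, with its lowest array, penicillin chow 1, alone in its group. Without penicillin chow 1 it was 1.25, and without penicillin chow 1 and penicillin high-fat 1 it was 1.17 (limma adjusted p = 0.115). Sox18, a transcription factor of endothelial cells, had the same shape at 7.62, 7.53 and 7.38 in penicillin high-fat mice, 7.23, 7.37 and 7.30 in control high-fat mice, 6.75, 6.78 and 6.70 in penicillin chow mice and 7.16, 7.14 and 7.22 in control chow mice. Its interaction was 0.64 ± 0.11 (adjusted p = 0.108). The secreted matrix protein gene Ccdc80 stood at 0.66 ± 0.12, but its other probe set was at 0.0017. Enc1, which encodes an actin-binding protein of the kelch family, had an interaction of 1.04 ± 0.18, with other probe sets at 0.76 and 0.24, and passed without penicillin high-fat 2 at 1.20 (adjusted p = 0.0163). The rest of the 10 were Pigp at 0.81 ± 0.12, a subunit of the enzyme that starts glycolipid anchors, the carbonic anhydrase gene Car2 at 0.95 ± 0.16, Bhlhb9 at 1.12 ± 0.20 and the mitochondrial acyl-CoA thioesterase gene Acot2 at 0.73 ± 0.13.

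The 14 further negative genes of smallest p had adjusted p of 0.183 to 0.387 and interactions of -3.43 to -0.46, and none passed. Hsd3b5, an enzyme of steroid metabolism high in livers of male mice, stood at 7.15, 9.57 and 8.96 in penicillin high-fat mice, 12.33, 12.63 and 12.22 in control high-fat mice, 11.70, 12.88 and 12.87 in penicillin chow mice and 13.01, 12.68 and 12.96 in control chow mice. Hsd3b5 was low in the penicillin high-fat group alone, where it fell 14.2-fold (adjusted p = 0.00739), and the mice of that group differed by more than 2 log2 units. Its interaction of -3.43 ± 0.70 had an adjusted p of 0.192 and a 95% interval of -4.96 to -1.90. Without penicillin chow 1 and penicillin high-fat 1, each the lowest of its group, it was -3.12 with an adjusted p of 0.00384. Ugt2b38, a glucuronosyltransferase, stood at 5.71, 7.13 and 6.73 in penicillin high-fat mice, 7.49, 7.84 and 8.15 in control high-fat mice, 10.19, 9.67 and 10.07 in penicillin chow mice and 9.11, 7.94 and 9.29 in control chow mice. Penicillin mice lay below controls on high-fat diet and above them on chow without overlap, and the interaction was -2.50 ± 0.54 (adjusted p = 0.219).

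Serpina12, which encodes the serpin vaspin, stood at 11.66, 11.61 and 11.90 in penicillin high-fat mice, 12.14, 12.21 and 12.31 in control high-fat mice, 11.69, 11.67 and 11.60 in penicillin chow mice and 11.52, 10.88 and 11.15 in control chow mice. High-fat feeding raised Serpina12 by 1.03 in control mice (adjusted p = 0.00694), and in penicillin mice the difference was 0.07. Its interaction was -0.96 ± 0.19 (adjusted p = 0.190), and another probe set gave -0.97. Without control chow 1 the interaction of Serpina12 was -1.13 and passed (adjusted p = 0.0477). Complement gene C8b stood at -1.06 ± 0.24, and passed without penicillin high-fat 2 at -1.29 (adjusted p = 0.0389). The elastase gene Cela1 stood at -1.12 ± 0.22 and Cyp2c70, which makes muricholic acids in mice, at -0.83 ± 0.21. Slco1a1, an organic anion transporter, and Cyp7b1, an oxysterol hydroxylase, stood at -0.69 ± 0.16 and -0.60 ± 0.15. Both fell on high-fat diet, by 0.84 and 0.79 (adjusted p = 0.00901 and 0.00861), but neither passed for the interaction. Fetub at -0.51 ± 0.11, Ahsa2 at -0.54 ± 0.11, Susd1 at -0.77 ± 0.18, Homer2 at -0.80 ± 0.19, and the dim genes Stac at -0.46 ± 0.11 and Prm2 at -0.47 ± 0.11 complete the group. Of the 30 genes of smallest p, 11 had other probe sets above the floor, and 14 of those 15 probe sets had the sign of the one tested, 1 of Homer2 at 0.0024 being the exception.

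**Figure D2:**
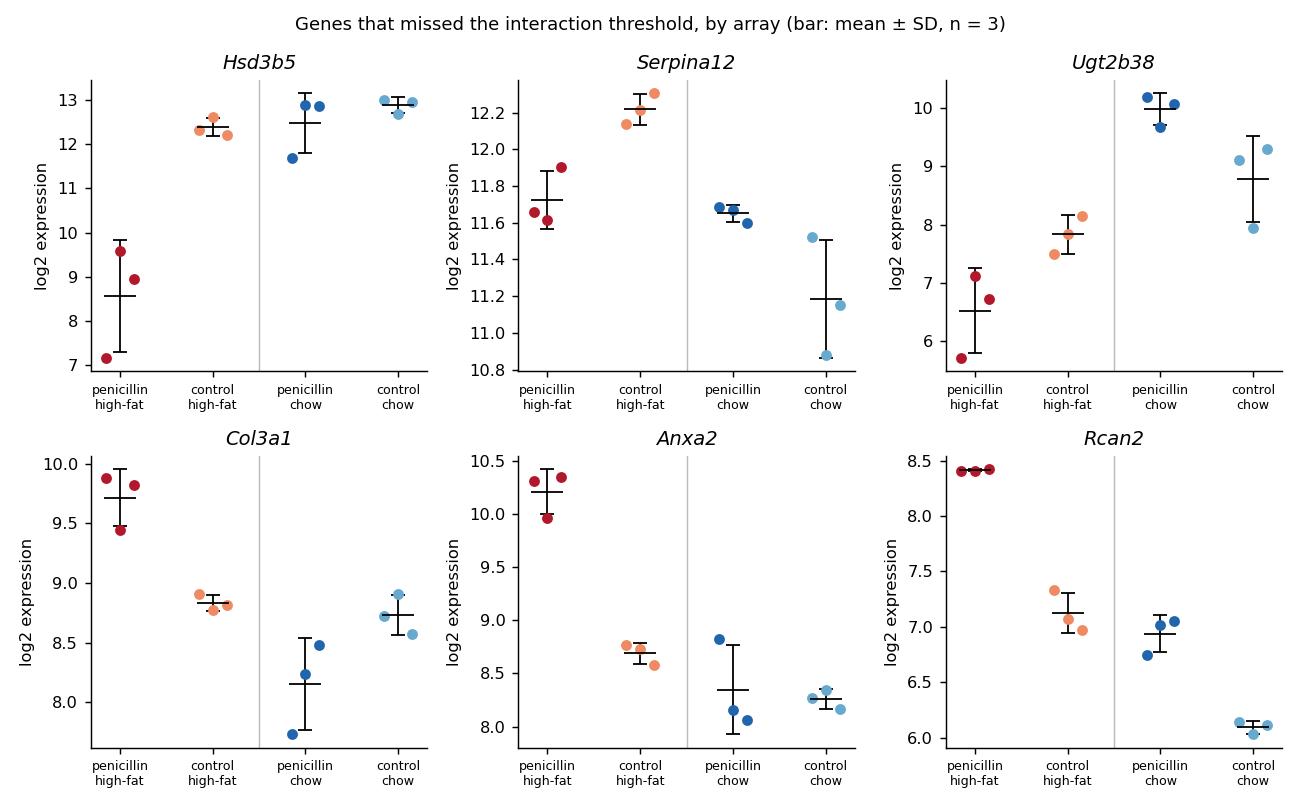
Log2 expression on each array for 6 genes that missed the interaction threshold, with group means and SD bars (n = 3). Hsd3b5 is low in penicillin high-fat mice alone, Ugt2b38 and Col3a1 move oppositely on the diets, Serpina12 differs from its chow level in control high-fat mice, and Rcan2 is higher in penicillin mice on both diets.

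Rcan2, whose product regulates calcineurin, shows a gene whose penicillin difference passed on each diet while the interaction did not. Rcan2 stood at 8.41, 8.40 and 8.42 in penicillin high-fat mice, 7.33, 7.07 and 6.97 in control high-fat mice, 6.75, 7.02 and 7.05 in penicillin chow mice and 6.14, 6.03 and 6.11 in control chow mice. Penicillin mice lay above controls on both diets without overlap. It rose by 1.29 on high-fat diet (2.44-fold) and by 0.85 on chow (1.80-fold), and was the single gene called on chow (0.00725% of genes tested, against 0.341% on high-fat diet). The interaction was 0.44 ± 0.15 (adjusted p = 0.649) with a 95% interval of 0.12 to 0.76 before adjustment. On unlogged values the interaction of Rcan2 passed with an adjusted p of 0.0140.

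**Figure D3:**
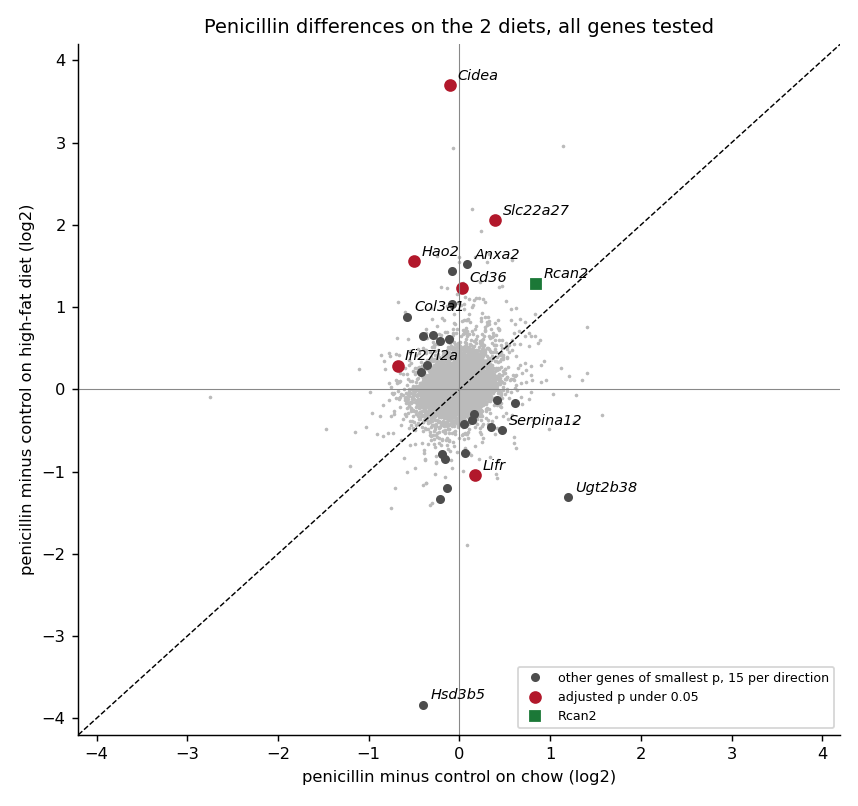
Penicillin difference of each of the 13788 genes tested, high-fat diet on the vertical and chow on the horizontal axis, in log2 units, with the diagonal marking equal differences on both diets. The genes past the interaction threshold lie above the diagonal, apart from Lifr below it, and Rcan2 lies near the diagonal at 1.29 on high-fat diet and 0.85 on chow.

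Among 23 tested genes of lipid droplets and PPAR gamma targets, 2 passed for the interaction, Cidea and Cd36, both positive, where 0.0435% of all genes tested passed. This list was chosen with earlier results of these data known, so nothing is read from that count. The list had 20 positive and 3 negative values and a median interaction of 0.45, where all genes tested had a median of 0.0098 and 52.4% positive. The list ranged from -1.33 to 3.80, and 10 positive and 2 negative genes had an unadjusted limma p under 0.05 (6.11% of all genes tested did). Its median penicillin difference was 0.27 on high-fat diet and -0.0091 on chow, against -5e-04 and -0.00635 over all genes. Vldlr, a lipoprotein receptor, stood at 7.41, 6.84 and 7.28 in penicillin high-fat mice, 5.83, 6.004 and 5.80 in control high-fat mice, 4.79, 4.56 and 4.95 in penicillin chow mice and 4.25, 4.57 and 5.36 in control chow mice. It was high in penicillin high-fat mice and near the floor on chow, and its interaction of 1.25 ± 0.34 missed the threshold (adjusted p = 0.438). Other probe sets of Vldlr gave 0.78 and 0.34. Mogat1, which makes diacylglycerol from monoacylglycerol, stood at 7.63, 8.15 and 8.11 in penicillin high-fat mice, 6.71, 6.31 and 6.05 in control high-fat mice, 5.65, 6.31 and 6.25 in penicillin chow mice and 5.77, 5.91 and 6.01 in control chow mice. Its groups overlapped on chow alone, and its interaction was 1.43 ± 0.29 (adjusted p = 0.190). The receptor gene Pparg stood at 0.84 ± 0.43 and missed the threshold, with 0.47 without penicillin chow 1 and 1.39 without the 3 arrays of low 18S signal. Cidec, a relative of Cidea, was at 8.66, 7.93 and 8.94 in penicillin high-fat mice, 5.17, 5.78 and 5.70 in control high-fat mice, 7.04, 5.22 and 5.51 in penicillin chow mice and 4.73, 4.83 and 4.80 in control chow mice. Penicillin chow 1, the array of high acute-phase genes, was the highest on chow, and all control chow values were below the floor. The interaction of Cidec was 1.82 ± 0.56 (adjusted p = 0.576), with 2.38 without penicillin chow 1, 1.47 without penicillin chow 2 and 0.9992 without the 3 arrays of low 18S signal. Adipocyte markers, 5 genes tested, had a median interaction of -0.28 (-0.18 without control high-fat 1) and 0 called, with their score between 0.01 and 0.10 in penicillin high-fat mice and between 0.07 and 0.26 in control high-fat mice.

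Of 12 male-biased liver genes 10 were negative for the interaction and 0 passed, with a median of -0.36 (-0.56 without control high-fat 3). Their median penicillin difference was -0.45 on high-fat diet, where 3 fell against 0.087% of all genes tested, and -0.10 on chow. The list's score, the mean over its genes of the log2 value minus the gene's mean on all arrays, was -0.98 to -0.52 in penicillin high-fat mice, -0.18 to -0.02 in control high-fat mice, 0.30 to 0.55 in penicillin chow mice and 0.29 to 0.61 in control chow mice. The groups were apart on high-fat diet and overlapped on chow. Of 12 female-biased genes 1 passed, Hao2, where 0.0435% of all genes tested passed. These 12 had 7 positive, against 52.4% of all genes tested, and a median of 0.22. That direction turned, to -0.22 with the filter at the 60th percentile and to -0.03 without control chow 3, and the median was 0.09 without penicillin chow 1, 0.12 without penicillin high-fat 1, 0.11 without penicillin high-fat 3, 0.35 without control chow 1 and 0.39 without control chow 2. Cyp2b9, a female-biased cytochrome, stood at 9.69, 10.88 and 11.18 in penicillin high-fat mice, 9.14, 9.40 and 10.03 in control high-fat mice, 5.95, 4.80 and 5.30 in penicillin chow mice and 5.25, 7.23 and 5.60 in control chow mice. The groups overlapped on both diets, and the interaction of 1.74 ± 0.73 did not pass (adjusted p = 0.775), with 1.14 without control chow 2. Slc22 transporters, 12 genes, had a median of 0.05 with 1 called, Slc22a27, and the median turned to -0.0080 without penicillin chow 1. The female-biased and Slc22 lists were chosen with earlier results of these data known, so nothing is read from 1 call in each.

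Among 14 genes of gp130 cytokine signalling Lifr was the 1 called, where 0.0435% of all genes tested passed. The median was -0.17 with 10 negative, and 52.4% of all genes tested were positive. That median was -0.09 without penicillin chow 1 and -0.48 without the 3 arrays of low 18S signal. The shared subunit gene Il6st stood at -0.21 ± 0.14 and Stat3, the transcription factor downstream, at -0.43 ± 0.36, and neither passed. Without penicillin chow 1 they were at -0.12 and -0.06. Stat3 read 11.04 in penicillin chow 1, against 10.32 or less elsewhere. Among 20 interferon-stimulated genes Ifi27l2a was the 1 called. Both lists were chosen with earlier results of these data known, so nothing is read from 1 call in each. The interferon median was 0.07 with 12 positive, and it turned to -0.05 without control chow 3. Ifit2, an interferon-induced inhibitor of translation, stood at 0.75 ± 0.23 and the transcription factor gene Stat2 at -0.44 ± 0.14, with adjusted p of 0.576 and 0.598.

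Genes of stellate cells and matrix, endothelium and macrophages had positive medians and 0 called. In bulk liver, fewer cells of a type and less RNA per cell cannot be told apart. Stellate cell and matrix genes, 24 tested, had 22 positive and a median interaction of 0.32, with 0.25 on high-fat diet and -0.15 on chow. Their score was 0.15 to 0.40 in penicillin high-fat mice, 0.0032 to 0.13 in control high-fat mice, -0.32 to -0.23 in penicillin chow mice and -0.20 to -0.01 in control chow mice, without overlap on either diet. Besides Col3a1 the collagen gene Col1a2 stood at 0.91 ± 0.23, the matrix proteoglycan gene Lum at 0.89 ± 0.22 and Lgals1, which encodes galectin-1, at 1.16 ± 0.29, and Lgals1 rose by 1.23 on high-fat diet (adjusted p = 0.0292). The median of the list stayed between 0.28 and 0.43 in 20 alternative settings. Sinusoidal endothelial markers, 19 genes, had 16 positive and a median of 0.24, which was 0.12 without penicillin chow 3 and 0.13 without penicillin high-fat 1. Their score was 0.07 to 0.31 in penicillin high-fat mice, 0.14 to 0.20 in control high-fat mice, -0.40 to -0.17 in penicillin chow mice and -0.10 to -0.01 in control chow mice. Clec14a, an endothelial lectin gene, stood at 7.95, 7.57 and 7.77 in penicillin high-fat mice, 7.99, 7.57 and 7.66 in control high-fat mice, 6.66, 6.82 and 6.76 in penicillin chow mice and 7.51, 7.61 and 7.40 in control chow mice. Penicillin chow mice were the low group, and the interaction was 0.78 ± 0.17 (adjusted p = 0.230).

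Macrophage and Kupffer cell markers, 22 genes, had 19 positive and a median interaction of 0.33, made of -0.14 on high-fat diet and -0.49 on chow. Their score was -0.11 to 0.45 in penicillin high-fat mice, 0.31 to 0.38 in control high-fat mice, -0.72 to -0.19 in penicillin chow mice and -0.13 to -0.02 in control chow mice. The lowest 2, -0.57 and -0.72, were penicillin chow 2 and 3, of low 18S signal. Without the 3 arrays of low 18S signal the median was -0.04. That fit keeps only penicillin chow 1 of its group, whose score of -0.19 was the highest there. Of single arrays left out, the median was 0.19 without penicillin high-fat 1 and 0.51 without penicillin high-fat 3. It was 0.52 without penicillin chow 1 and 0.20 without penicillin chow 3. Aif1, a macrophage calcium-binding protein, stood at 7.58, 7.33 and 6.96 in penicillin high-fat mice, 7.53, 7.23 and 7.44 in control high-fat mice, 6.18, 6.28 and 6.31 in penicillin chow mice and 6.97, 6.82 and 6.99 in control chow mice. It was low in penicillin chow mice, and its interaction was 0.56 ± 0.19 (adjusted p = 0.697). Cybb at 0.51 ± 0.21, a subunit of the phagocyte oxidase, and the pore-forming protein gene Mpeg1 at 0.46 ± 0.19 did not pass either, and without the low-18S arrays they were at 0.24 and 0.20. MHC class II genes, 6 tested, had 5 positive and a median of 0.36, which was 0.17 without penicillin high-fat 1 and 0.20 without control high-fat 2. Medians were 0.02 for 9 T and NK cell markers, 0.04 for 6 B cell markers, -0.11 for 6 neutrophil markers and -0.01 for 14 hepatocyte markers, and each of these turned sign in at least 1 of 20 alternatives. They were 0.20 for 5 cholangiocyte markers, lowest at 0.09 without penicillin high-fat 3, and -0.08 for 7 pancreatic acinar markers, nearest to 0 at -0.01 without control chow 2. No gene of these 6 lists was called.

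Stress and division genes had medians of opposite sign and 0 called. NRF2 targets, 17 genes, had 16 positive and a median interaction of 0.42 (0.27 without control high-fat 3), with 0.74 on high-fat diet and 0.10 on chow. Nqo1, a quinone reductase, stood at 7.35, 7.25 and 7.67 in penicillin high-fat mice, 6.57, 6.59 and 6.58 in control high-fat mice, 6.57, 6.86 and 6.66 in penicillin chow mice and 6.41, 6.73 and 6.71 in control chow mice. It rose by 0.84 on high-fat diet (adjusted p = 0.0119), and its interaction of 0.76 ± 0.17 missed the threshold (adjusted p = 0.256). The score of the list was 0.02 to 0.47 in penicillin high-fat mice, -0.53 to -0.24 in control high-fat mice, -0.01 to 0.20 in penicillin chow mice and -0.21 to 0.16 in control chow mice. The control high-fat mice were the lowest group. All 12 heat shock genes were negative, with a median of -0.44, made of -0.0084 on high-fat diet and 0.50 on chow. Hsph1, a nucleotide exchange chaperone, stood at -0.89 ± 0.32 and Hsp90aa1 at -0.49 ± 0.19, with adjusted p of 0.724 and 0.749, but 1 of the other 3 probe sets of Hsp90aa1 was at 0.18. The heat shock median was -0.79 without the 3 arrays of low 18S signal and, of single arrays, -0.17 without control high-fat 1, -0.73 without control high-fat 3 and -0.28 without control chow 3. Cell cycle genes, 16 tested, had 13 positive and a median of 0.27, with the cyclin gene Ccnb2 at 0.80 ± 0.22 and the replication helicase subunit genes Mcm5 and Mcm6 at 0.81 ± 0.32 and 0.76 ± 0.28, and 0 passed. Without the 3 arrays of low 18S signal Mcm5 was at 0.17 and Mcm6 at 0.22.

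**Figure D4:**
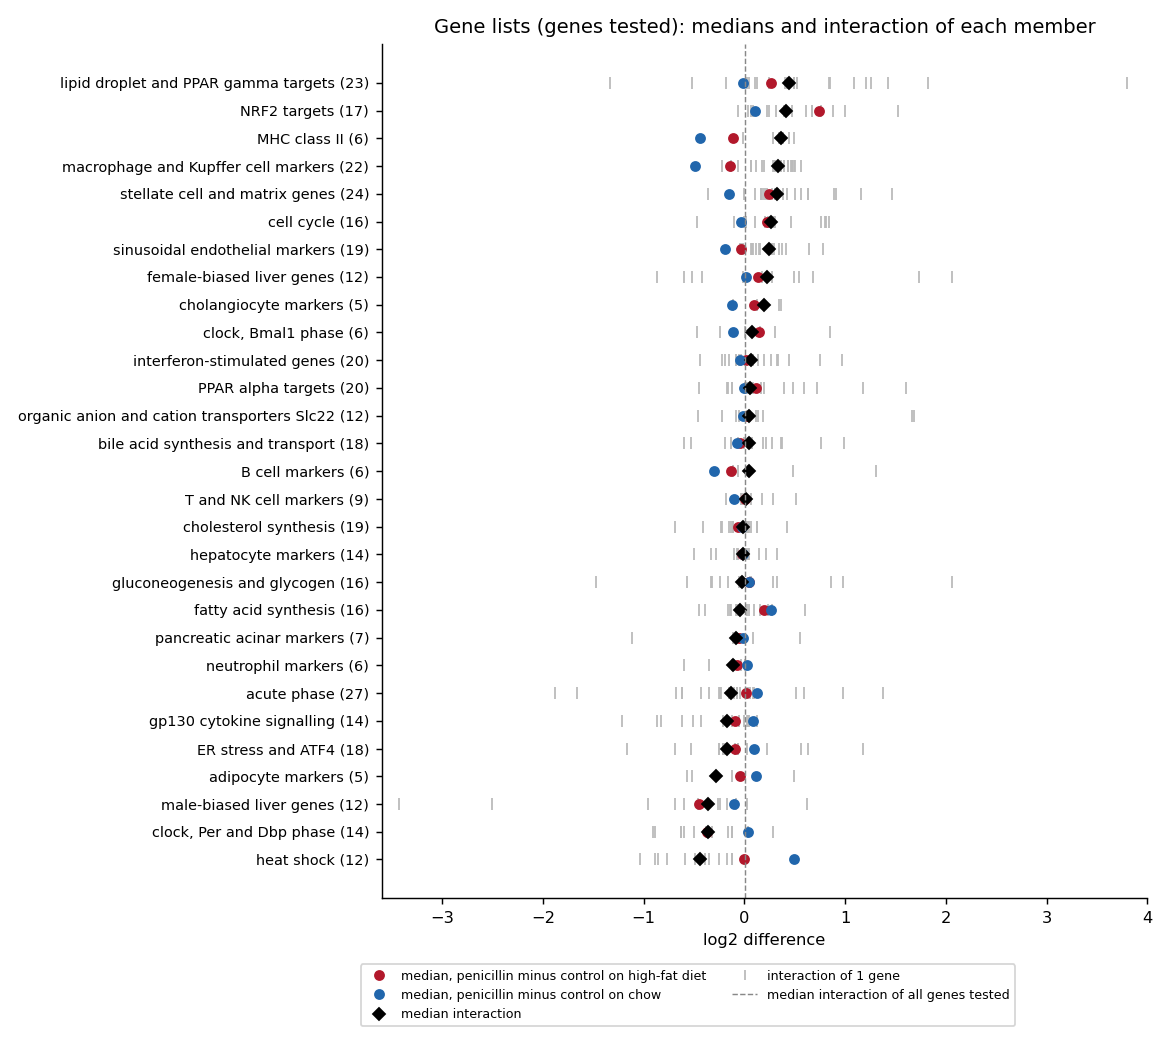
Median interaction (black diamonds) and median penicillin differences on high-fat diet (red) and chow (blue), in log2 units, for the gene lists with at least 5 genes tested, with a grey tick per gene and the number of genes in brackets. The lipid droplet list has the highest median at 0.45 and heat shock the lowest at -0.44, and for macrophage markers and heat shock the chow median is the one far from 0.

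**Figure D5:**
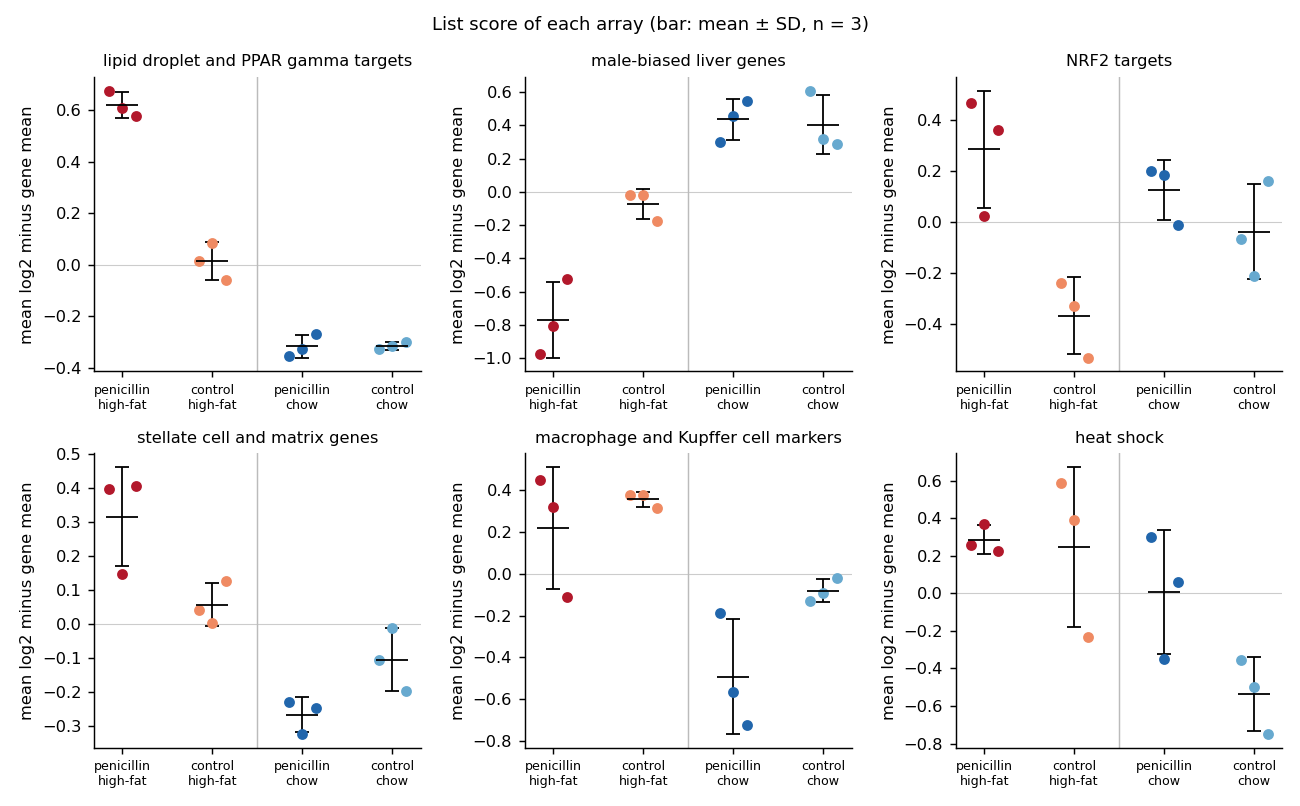
Score of each array for 6 gene lists, the mean over the genes of the log2 value minus the gene's mean on all arrays, with group means and SD bars (n = 3). Scores of lipid droplet, male-biased, NRF2 target and stellate and matrix genes do not overlap between penicillin and control mice on high-fat diet. Those of lipid droplet genes are 0.58 to 0.68 against -0.06 to 0.09, and macrophage markers are lowest in penicillin chow mice.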

How the data were processed

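Liver RNA of 12 mice was measured on Affymetrix arrays of 45101 probe sets. The deposited values are log2 signals. The submitters' processing notes name RMA and affy as the tools, with versions not given in the sources used here. This method quantile-normalises the arrays together, so a shift shared by most genes would not be seen. Gene names came from the annotation of the platform in GEO (34945 probe sets with 1 symbol, 932 with several, 9160 with none and 64 controls). Genes were represented by the probe set of highest mean, and the test took 13788 of 18193 genes, those that exceeded the 40th percentile on 3 or more arrays. Limma 3.58.1 in R 4.3.3 fitted the 4 group means (8 residual degrees of freedom), with Benjamini-Hochberg adjustment over all genes tested within each contrast, and a gene passed at an adjusted p under 0.05. The script was tested on simulated data. Named genes are those that passed, the 15 of smallest p in each direction, up to 4 of smallest p in each list with the regulators it is named for, and genes called in a component, such as Rcan2. The contrast, the gene lists and the named genes were chosen with earlier results of these data known. Scan dates and other batches were not used here.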

Additional observations from a re-analysis of the deposited data

Results flagged for a closer look

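The test of the difference between the diets singled out 6 genes, whose penicillin effects on high-fat diet and on chow differed past the threshold: Hao2 by 2.06, Cidea by 3.80, Slc22a27 by 1.66, Cd36 by 1.21, Ifi27l2a by 0.97 and Lifr by -1.22 log2 units (limma adjusted p of 0.0114 to 0.0418). For Hao2 and Cidea both chow groups had means below the floor of the filter, so the measured part of these values is the rise on high-fat diet, by 1.56 and 3.70. The chow groups of Slc22a27 lay around the floor, at 4.94 to 5.13 in penicillin mice and 4.43 to 4.965 in controls. Its value of 1.66 therefore rests on the rise by 2.06 on high-fat diet and a chow difference that is hardly measurable.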

How the results depend on the processing

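None of the 6 called genes changed the sign of its interaction in the alternatives run. The interaction's count of 6 became 1 with every probe set tested on its own, 15 with array weights and 1 with the 18S signal as a covariate (Hao2). Without the 3 arrays of low 18S signal penicillin chow 1 was alone in its group, so no interaction count is given for that fit. The chow count of that fit, listed below, sets penicillin chow 1 alone, an array that itself stood apart, against the controls. Nothing is read from that chow count. The high-fat count of that fit compares the high-fat groups without penicillin high-fat 2. Unlogged values ended the calls of Cidea, Ifi27l2a and Lifr and made 3 others, median centring ended those of Slc22a27 and Ifi27l2a, the probe set of largest interquartile range those of Cd36 and Slc22a27, and the trended robust fit that of Cidea. Leaving out each array in turn gave 0 to 10 genes: 0 without penicillin high-fat 1, penicillin chow 3 or control chow 2, 1 without penicillin high-fat 3, control high-fat 1 or control high-fat 3, 3 without penicillin chow 1 or penicillin chow 2, and 10 without control chow 3. On high-fat diet the count of 47 became 183 with array weights, 118 at an adjusted p under 0.10, 25 with at least 1 log2 unit required, 89 with the 18S covariate, 148 without the low-18S arrays and 27 without penicillin chow 1 and penicillin high-fat 1. Single arrays left out gave 21 (penicillin high-fat 1) to 113 (penicillin high-fat 2), with 30 without penicillin high-fat 3, 22 without control high-fat 1, 24 when control high-fat 2 or 3 was removed, and 95 for penicillin chow 1. On chow the count of 1 became 0 with the probe set of largest interquartile range, every probe set, unlogged values, the 18S covariate or at least 1 log2 unit, 2 at an adjusted p under 0.10 or without penicillin chow 1 and penicillin high-fat 1, and 251 without the low-18S arrays. Single arrays left out gave 0 to 4 there, with 4 without control chow 3 and 2 without penicillin chow 1. The cause of these changes was not tested. With the replicate block the interaction count was 2 (Hao2 and Lifr), the high-fat count 35 and the chow count 0. Deviations from the group means correlated at -0.23 to 0.17 between same-numbered arrays and at -0.22 to 0.34 between arrays of different number. With 3 arrays a group this cannot settle whether the numbers pair the samples. List medians were not recomputed on unlogged values. With 3 mice a group, the 95% interval of the interaction reached a median of 0.32 log2 units to either side.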

Other observations

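Lists with no gene past the threshold for the interaction gave the following values. Clock genes of the Per and Dbp phase, 14 tested, had 12 negative and a median of -0.37, which was -0.15 without penicillin high-fat 1, -0.55 without penicillin high-fat 3, -0.17 without control high-fat 3 and -0.13 without control chow 3, with their score at -0.73 in penicillin high-fat 1. Acute-phase genes, 27 tested, had 18 negative and a median of -0.13, which turned to 0.06 without penicillin chow 1. ER stress and ATF4 genes, 18 tested, had 13 negative and a median of -0.18, which was -0.04 without penicillin chow 1, -0.06 without control high-fat 1, -0.07 without control high-fat 2 and -0.11 without control chow 3. PPAR alpha targets, 20 tested, had 15 positive and a median of 0.06 (0.01 to 0.22 over 20 alternatives), with Pdk4, a kinase that inhibits pyruvate dehydrogenase, at 1.61 ± 0.58 (limma adjusted p = 0.718), which was 1.04 without penicillin high-fat 1.

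Medians were -0.05 for 16 fatty acid synthesis genes, -0.01 for 19 cholesterol synthesis genes, 0.05 for 18 bile acid genes and -0.02 for 16 genes of gluconeogenesis and glycogen, and each turned sign in 2 to 5 of 20 alternatives. Ppp1r3g, a glycogen-targeting subunit of protein phosphatase 1, stood at 8.39, 7.88 and 7.44 in penicillin high-fat mice, 5.44, 6.85 and 4.84 in control high-fat mice, 4.53, 4.71 and 4.58 in penicillin chow mice and 4.40, 4.82 and 4.19 in control chow mice. It rose by 2.20 on high-fat diet (limma adjusted p = 0.0498), lay near or below the floor on chow, and its interaction of 2.06 ± 0.57 did not pass (adjusted p = 0.469). Without control high-fat 2, the highest of its group, the interaction of Ppp1r3g was 2.63 and passed (adjusted p = 0.0483).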
